A study of Mus musculus with 9 samples.

Results

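The genes described here are 10 transcription factors and regulators of the immediate early response: the AP-1 subunits Jun, Junb, Jund and Fos, the zinc finger factors Egr1 and Klf6, the small regulators Ier2 and Ier3, and the growth regulators Myc and Mycn. They were chosen by symbol, and each of the 10 matched 1 entry among the 35275 of the deposited table. All 10 passed the filter on low counts, which kept 13151 entries. Liver RNA came from C57BL/6 mice in 3 groups of 3 libraries: AdipoRonPEG5, a PEGylated analog of AdipoRon; AdipoRon itself, a synthetic compound that activates the adiponectin receptors; and vehicle, which was PBS. The labels give 2 injections a day for 5 days, and 5 mg/kg for the compounds and for PBS in the same sentence, so that the dose is not certain. Sex, age and the interval between the last injection and the harvest are not given in the sources used here, nor is it stated that each library is from its own mouse. Where mice are shared between libraries, the p-values measure technical spread only.

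Immediate early genes are transcribed within minutes of a stimulus, without the need for new protein, when kinases such as ERK, JNK and p38 phosphorylate factors already bound to their promoters. Jun and Fos proteins pair through leucine zippers to form AP-1, which binds short palindromic DNA elements. Myc and Mycn encode closely related factors that pair with Max and drive genes of growth. In the liver these genes are known for their induction after partial hepatectomy, injury and inflammation, and many of their mRNAs are unstable.

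The libraries held 39473195 counts in vehicle 1 and 13942322 to 18508950 counts in the other 8. The summed level of 6 hepatocyte markers was 77900 to 86200 CPM in AdipoRonPEG5, 71200 to 80900 CPM in AdipoRon and 80000 to 94800 CPM in vehicle libraries, and no hepatocyte marker was at 0. CPM are read counts relative to the library total, scaled by TMM factors. Saa1, an acute phase gene, set vehicle 3 (4960 CPM) and AdipoRonPEG5 1 (1950 CPM) apart from the other 7 libraries (45 to 496 CPM). Summed macrophage markers (12 genes, none at 0) were at 781 to 790 CPM in AdipoRonPEG5, 490 to 858 CPM in AdipoRon and 203 to 294 CPM in vehicle libraries. Summed neutrophil markers (6 genes, with Ly6g at 0 throughout) were at 4.19 to 9.86, 4.03 to 4.83 and 0.971 to 2.01 CPM in the same order of groups, and summed lymphocyte markers (9 genes) at 7.21 to 8.63, 4.44 to 7.09 and 1.41 to 2.47 CPM. In whole liver RNA a change in the number of cells of a type and a change in RNA per cell cannot be told apart. The part of these cells in the changes below was not tested.

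Promoters of 7 of the 10 genes were matched in the RefSeq table (GRCm38.p6), each from 250 bases before the annotated start to 50 bases after it. The 4 promoters shown include those of Jun and Mycn, on which the comparison of the compounds turns. Shown besides are those of Fos, the partner of Jun, and of Klf6, 1 of several genes that varied with Jun. Between Klf6 and Jun the correlation of deviations from the group means was 0.80, and 0.41 without AdipoRonPEG5 1 and AdipoRonPEG5 3. For Ier3, whose matched promoter is not shown, the correlation with Jun was 0.60, and 0.75 without those libraries. Base 251 of each promoter is the annotated start, and capitals mark the motifs that were searched.
Jun, GRCm38.p6 chr4:95052173-95052472, minus strand: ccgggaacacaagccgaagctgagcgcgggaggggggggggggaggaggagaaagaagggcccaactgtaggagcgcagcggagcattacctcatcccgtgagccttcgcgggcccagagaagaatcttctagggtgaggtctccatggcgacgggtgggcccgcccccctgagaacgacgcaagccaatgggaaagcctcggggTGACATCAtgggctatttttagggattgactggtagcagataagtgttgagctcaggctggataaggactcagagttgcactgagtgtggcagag
Fos, GRCm38.p6 chr12:85473640-85473939, plus strand: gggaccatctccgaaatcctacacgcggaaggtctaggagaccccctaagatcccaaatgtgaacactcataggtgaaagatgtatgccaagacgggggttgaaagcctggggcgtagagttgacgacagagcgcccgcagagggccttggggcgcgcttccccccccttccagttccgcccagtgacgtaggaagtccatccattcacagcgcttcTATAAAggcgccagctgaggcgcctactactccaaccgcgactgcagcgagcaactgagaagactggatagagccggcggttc
Klf6, GRCm38.p6 chr13:5861239-5861538, plus strand: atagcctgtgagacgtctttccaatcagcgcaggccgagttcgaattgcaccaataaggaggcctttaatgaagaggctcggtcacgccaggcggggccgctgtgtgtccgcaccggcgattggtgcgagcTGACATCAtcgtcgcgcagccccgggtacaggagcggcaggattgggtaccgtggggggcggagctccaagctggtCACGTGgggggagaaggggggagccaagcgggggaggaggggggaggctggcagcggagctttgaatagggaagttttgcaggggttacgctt
Mycn, GRCm38.p6 chr12:12941787-12942086, minus strand: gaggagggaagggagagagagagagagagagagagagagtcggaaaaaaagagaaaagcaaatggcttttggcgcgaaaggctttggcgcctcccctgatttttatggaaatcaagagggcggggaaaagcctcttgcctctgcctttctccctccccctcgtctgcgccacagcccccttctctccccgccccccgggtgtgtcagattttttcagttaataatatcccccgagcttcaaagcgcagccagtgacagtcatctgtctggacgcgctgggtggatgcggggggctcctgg
The motifs were the AP-1 element TGANTCA, the CRE TGACGTCA, the variant TGACATCA known from the JUN promoter in humans, the E-box CACGTG, the TATA box TATAAA and the CArG box by its name, each on both strands; CACGTG reads the same on both. TGACATCA was at bases 206 to 213 of the Jun promoter and at bases 132 to 139 of the Klf6 promoter, which also held CACGTG at bases 208 to 213. TATAAA was at bases 218 to 223 for Fos and at bases 251 to 256 for Junb. Of 32851 promoters of the same length in the table, 3.62% held TGACATCA, 7.15% CACGTG, 13.6% TATAAA, 7.81% TGANTCA, 1.79% TGACGTCA and 1.63% a CArG box. The windows of Jund, Ier3 and Mycn held none of these letters. The matches describe the sequences only, and no binding was measured.

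Per kilobase of transcript, the genes fell into high and low tiers. In vehicle livers the deposited FPKM averaged 15.5 ± 1.37 for Jund, 15.3 ± 4.14 for Ier2 and 14.4 ± 4.51 for Junb (SD, n = 3), and the ranges of these genes overlapped. Jun followed at 3.65 ± 0.773 FPKM, above Mycn at 1.88 ± 0.478 FPKM with no overlap. Klf6 (1.16 ± 0.4 FPKM), Myc (0.884 ± 0.276 FPKM) and Egr1 (0.861 ± 0.268 FPKM) overlapped one another. Klf6 also overlapped Mycn, and Egr1 overlapped Ier3 (0.480 ± 0.163 FPKM), while Fos (0.200 ± 0.0668 FPKM) lay below all others. In AdipoRonPEG5 livers Jun averaged 24.9 ± 19.8 FPKM and overlapped Jund (21.3 ± 2.92 FPKM), while Mycn, at 0.505 ± 0.113 FPKM, lay below Ier3 (1.11 ± 0.354 FPKM) and overlapped Fos (0.330 ± 0.135 FPKM). In AdipoRon livers the order from the top was Ier2 (18.8 ± 2.23 FPKM), Junb (18.6 ± 7.20 FPKM) and Jund (18.3 ± 0.335 FPKM), then Myc (4.33 ± 2.05 FPKM), Jun (3.05 ± 0.532 FPKM) and Egr1 (2.96 ± 2.95 FPKM), with overlap between neighbours in each of these triplets. Mycn (1.98 ± 0.352 FPKM), Klf6 (1.68 ± 0.333 FPKM), Ier3 (0.760 ± 0.179 FPKM) and Fos (0.514 ± 0.244 FPKM) had lower averages. The range of Mycn (1.66 to 2.35 FPKM) overlapped those of Myc (2.07 to 6.07 FPKM) and Egr1 (0.903 to 6.35 FPKM). Klf6 (1.46 to 2.06 FPKM) and Ier3 (0.617 to 0.961 FPKM) also overlapped Egr1. 

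**Figure D1:**
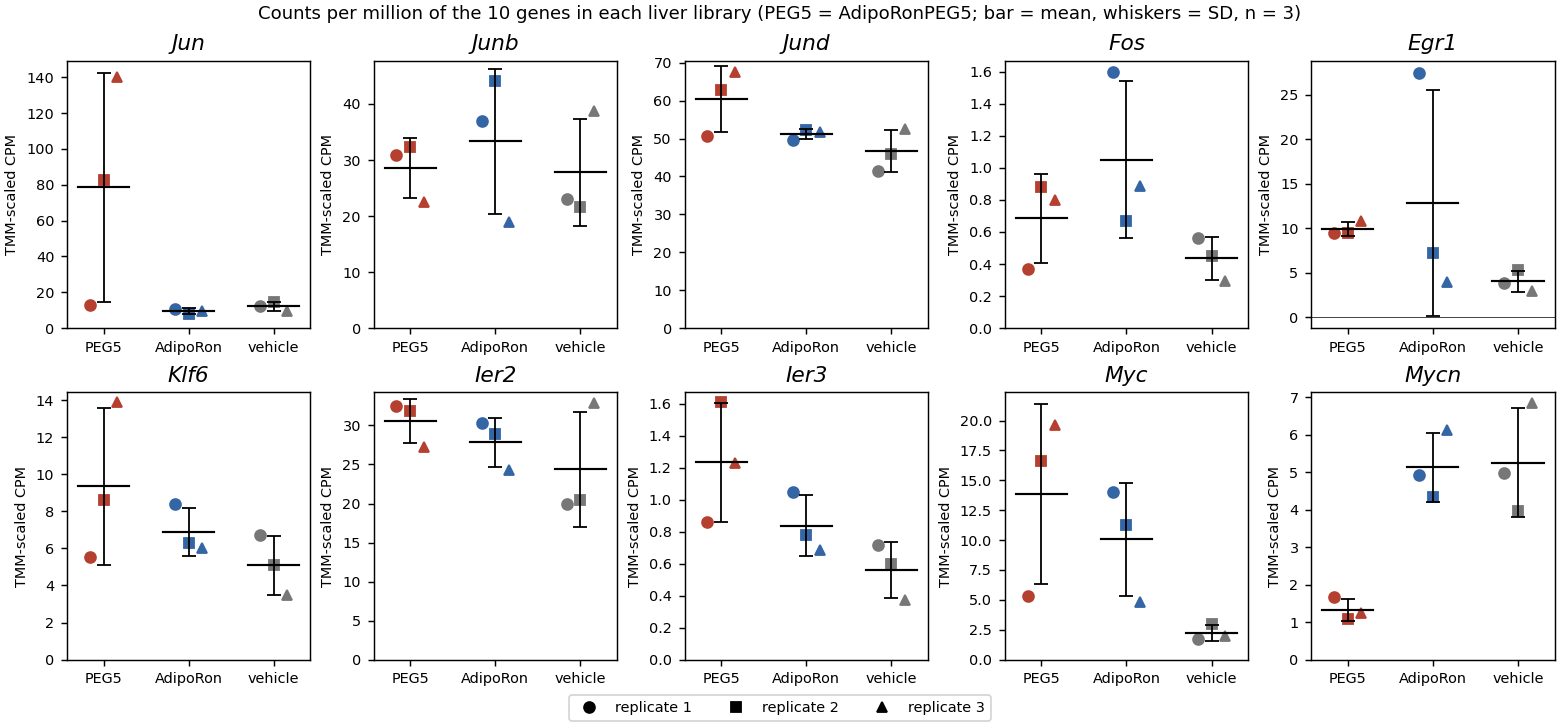
TMM-scaled CPM of each gene (vertical axes, linear, each with its own scale) in the 3 libraries of each group; symbols give the replicate number, bars the mean and whiskers the SD. Jun was at 82.8 and 140 CPM in AdipoRonPEG5 2 and 3 and at 7.77 to 14.4 CPM in the other 7 libraries, and the 3 AdipoRonPEG5 libraries (1.09 to 1.66 CPM) hold the lowest Mycn, below the 6 others (3.96 to 6.84 CPM).

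AdipoRonPEG5 was first set against vehicle. With AdipoRonPEG5, Myc, Jun and Jund rose and Mycn fell, and the other 6 genes did not pass. The 4 called genes are read against 17.2% of all tested genes called in this comparison (9.55% higher and 7.63% lower), by edgeR's quasi-likelihood test at a Benjamini-Hochberg adjusted p of 0.05. The median log2 fold change was 0.70 over the 10 genes and -0.0013 over all tested genes. Groups did not overlap for Egr1, Ier3, Myc and Mycn, and did not overlap for 35.2% of all tested genes.

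Mycn, best known for its role in embryonic and neural growth, was at 1.66, 1.09 and 1.23 CPM in AdipoRonPEG5 1, 2 and 3, against 4.98, 3.96 and 6.84 CPM in vehicle 1, 2 and 3. Every AdipoRonPEG5 library lay below every vehicle library. Mycn fell 3.95-fold (-1.98 ± 0.26 as log2 fold change and SE, with a Benjamini-Hochberg adjusted p = 0.000953 by edgeR). Under 19 alternatives of processing and left-out libraries its value ran from -2.17 to -1.78 and its call never ended.

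Myc, which drives growth and ribosome production and is induced within hours of liver injury, moved the other way. It was at 5.36, 16.6 and 19.6 CPM in AdipoRonPEG5 1, 2 and 3, against 1.70, 2.99 and 1.93 CPM in vehicle 1, 2 and 3. The groups did not overlap, although AdipoRonPEG5 1 stood well below the other 2 libraries of its group. Myc rose 6.56-fold (log2 fold change 2.71 ± 0.51 (SE), adjusted p = 0.00531), with values from 2.38 to 3.09 under the 19 alternatives and no call ended.

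Jun, the AP-1 subunit that JNK phosphorylates, was split within its group. It was at 12.8, 82.8 and 140 CPM in AdipoRonPEG5 1, 2 and 3, against 12.2, 14.4 and 9.66 CPM in vehicle 1, 2 and 3. AdipoRonPEG5 1 lay inside the vehicle range, and the other 2 libraries lay far above it. The fitted rise was 6.49-fold (log2 fold change 2.7 ± 0.61 (SE), 95% confidence interval 1.36 to 4.04, adjusted p = 0.0124). Without AdipoRonPEG5 3 the value was 1.98 and the call ended (adjusted p = 0.0513), and it ended with limma-voom (adjusted p = 0.0821). Without vehicle 3 and AdipoRonPEG5 1 together the value was 3.09. Junos, an antisense gene annotated as overlapping Jun, had 5 to 14 counts in each library, against 130 to 2280 for Jun.

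Jund, the AP-1 subunit with steady expression in many resting tissues, was at 50.8, 62.9 and 67.5 CPM in AdipoRonPEG5 1, 2 and 3, against 41.5, 46.0 and 52.6 CPM in vehicle 1, 2 and 3. The groups overlapped at their edges. Its rise of 1.30-fold (log2 fold change 0.38 ± 0.11 (SE), adjusted p = 0.0429) lost its call under 8 of 19 alternatives (adjusted p from 0.0526 to 0.158). These were the fit of only the 2 groups compared and the fits without vehicle 1, vehicle 2, any 1 of the AdipoRon libraries, AdipoRonPEG5 2 or AdipoRonPEG5 3. Junb, an inducible subunit that can restrain Jun, was at 30.9, 32.3 and 22.5 CPM in AdipoRonPEG5 and 23.1, 21.6 and 38.8 CPM in vehicle livers, with full overlap (log2 fold change 0.052, 95% confidence interval -0.59 to 0.70, adjusted p = 0.928). Part of Junb overlaps Prdx2 on the other strand, which was at 78.9 to 102 CPM over all libraries, and whether the counting used strand is not stated in the labels.

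Fos, the partner of Jun in AP-1, was near the detection floor. It had 6, 17 and 13 counts in AdipoRonPEG5 1, 2 and 3, against 22, 6 and 4 counts in vehicle 1, 2 and 3, of which vehicle 1 was sequenced more deeply. In CPM that is 0.370, 0.882 and 0.801 against 0.565, 0.448 and 0.297 (3 counts, taken as the limit of detection, correspond to 0.076 to 0.215 CPM). The ranges overlapped, and the log2 fold change of 0.56 had a 95% confidence interval from -0.48 to 1.59 (adjusted p = 0.457), which includes no change and a rise of 2-fold.

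Egr1, a zinc finger factor induced through ERK, was at 9.49, 9.44 and 10.8 CPM in AdipoRonPEG5 1, 2 and 3, against 3.85, 5.30 and 2.90 CPM in vehicle 1, 2 and 3. All 3 treated libraries lay above all 3 vehicle libraries, and the AdipoRonPEG5 libraries lay close together. Its log2 fold change of 1.31 ± 0.57 (SE) did not pass (adjusted p = 0.14). It passed without AdipoRon 1 (adjusted p = 0.00559), a library outside this comparison that enters the shared estimate of spread, with only the 2 groups compared (adjusted p = 0.00326) and with no filter on low counts (adjusted p = 0.0424).

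Klf6, a factor of injury responses in several liver cell types, was at 5.55, 8.61 and 13.9 CPM in AdipoRonPEG5 1, 2 and 3, against 6.70, 5.08 and 3.49 CPM in vehicle 1, 2 and 3. Its log2 fold change of 0.83 ± 0.32 (SE) did not pass (adjusted p = 0.0958), but passed with no filter (0.0363), with DESeq2 (0.0369), without AdipoRonPEG5 1 (value 1.10, 0.0314) and without vehicle 3 and AdipoRonPEG5 1 together (value 0.90, 0.0446), all as adjusted p. Ier3, which modulates ERK signalling and cell survival, was at 0.863, 1.61 and 1.23 CPM against 0.719, 0.597 and 0.372 CPM in vehicle, with no overlap (log2 fold change 1.05 ± 0.35 (SE), adjusted p = 0.0628, and 0.049 without AdipoRonPEG5 1). Ier2, a nuclear immediate early protein, was at 32.5, 31.9 and 27.3 CPM in AdipoRonPEG5 and 19.9, 20.4 and 32.9 CPM in vehicle livers (log2 fold change 0.34 ± 0.18 (SE), adjusted p = 0.217). The vehicle library at 32.9 CPM was vehicle 3, which stood apart in Saa1. Without it the log2 fold change of Ier2 was 0.60 (adjusted p = 0.00644), and without vehicle 3 and AdipoRonPEG5 1 together 0.56 (adjusted p = 0.0184).

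The second comparison set AdipoRon against vehicle. Of the 10 genes, only Myc was called by edgeR, against 5.20% of all tested genes (3.80% higher and 1.40% lower). A total of 3 of the 10 genes had an unadjusted p under 0.05 by edgeR, as had 2884 of all 13151 tested genes. The median log2 fold change of the 10 genes was 0.33, against 0.0057 over all tested genes. Groups did not overlap for Fos and Myc, and for 26.8% of all tested genes.

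Myc was at 14.0, 11.3 and 4.85 CPM in AdipoRon 1, 2 and 3, against 1.70, 2.99 and 1.93 CPM in vehicle 1, 2 and 3. The groups did not overlap, and AdipoRon 3 was the lowest of its group. Myc rose 4.78-fold (2.26 ± 0.51 as log2 fold change and SE, with a Benjamini-Hochberg adjusted p = 0.032 by edgeR). The value ran from 1.95 to 2.58 under the 19 alternatives, and the call ended under 8 of them (adjusted p from 0.0523 to 0.104). These were limma-voom, the replicate block, and the fits without vehicle 1, vehicle 2, vehicle 3, AdipoRon 1, AdipoRon 2 or AdipoRonPEG5 2.

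Mycn did not share the rise of Myc. It was at 4.93, 4.33 and 6.14 CPM in AdipoRon 1, 2 and 3, inside the vehicle range of 3.96 to 6.84 CPM (log2 fold change -0.033, 95% confidence interval -0.53 to 0.47, adjusted p = 0.951). Jun was at 10.9, 7.77 and 9.70 CPM, against 12.2, 14.4 and 9.66 CPM in vehicle 1, 2 and 3 (log2 fold change -0.36, 95% confidence interval -1.77 to 1.05, adjusted p = 0.797). The fit takes 1 spread for Jun from all 9 libraries, those of AdipoRonPEG5 included.

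Egr1 was at 27.4, 7.16 and 3.96 CPM in AdipoRon 1, 2 and 3, against 3.85, 5.30 and 2.90 CPM in vehicle 1, 2 and 3. AdipoRon 1 was far above every other library of the study, and AdipoRon 3 lay inside the vehicle range. The log2 fold change was 1.69 ± 0.56 (SE, adjusted p = 0.108), and it passed without AdipoRon 3 (2.10, adjusted p = 0.0358) and with no filter (adjusted p = 0.0193). Fos had 26, 12 and 13 counts in AdipoRon 1, 2 and 3, which is 1.60, 0.666 and 0.888 CPM, against 0.565, 0.448 and 0.297 CPM in vehicle 1, 2 and 3. The ranges did not overlap, and the log2 fold change of 1.15 ± 0.45 (SE) did not pass (adjusted p = 0.163). Junb was at 36.9, 44.1 and 19.0 CPM, Jund at 49.7, 52.2 and 51.8 CPM, Ier2 at 30.3, 28.9 and 24.3 CPM, Klf6 at 8.38, 6.27 and 6.01 CPM and Ier3 at 1.05, 0.777 and 0.683 CPM in AdipoRon 1, 2 and 3. All 5 overlapped vehicle, with log2 fold changes from 0.14 for Jund to 0.49 for Ier3, and none passed except Ier2 without vehicle 3 (0.47, adjusted p = 0.0496).

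**Figure D2:**
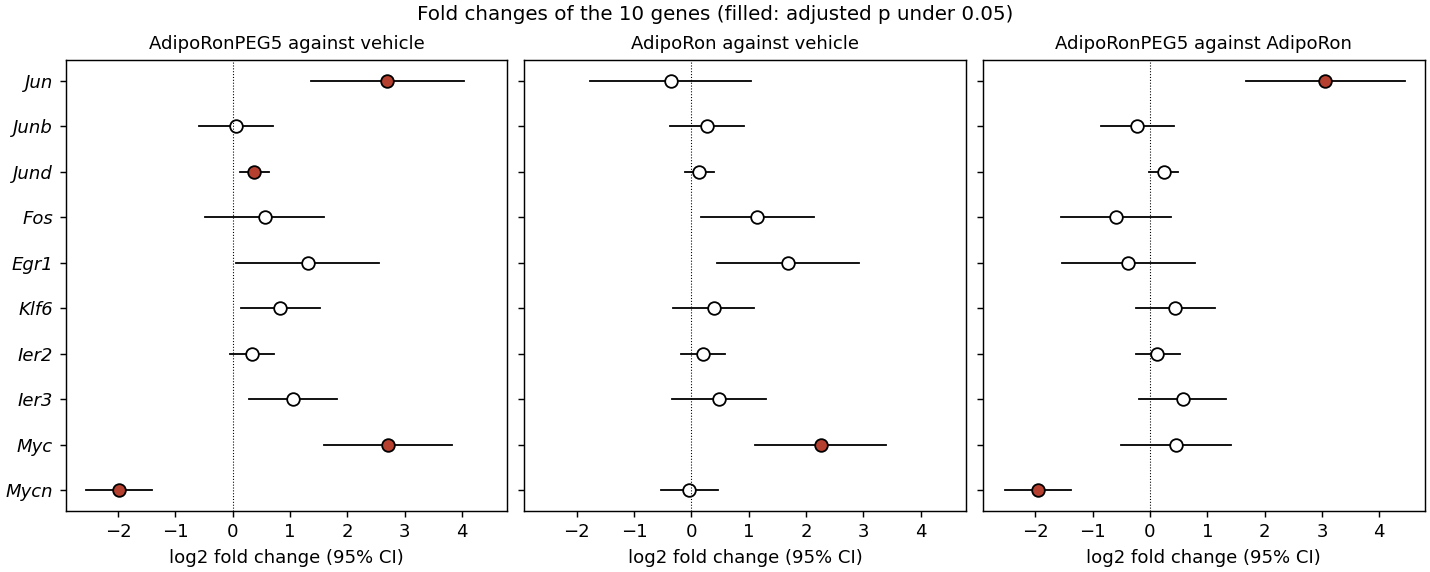
Log2 fold changes (horizontal axes) of the 10 genes in the 3 comparisons from the edgeR fit, with 95% confidence intervals as lines; filled points passed an adjusted p of 0.05. Myc was called with both compounds against vehicle (2.71 and 2.26), whereas Jun and Mycn were called with AdipoRonPEG5 against vehicle and against AdipoRon.

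The third comparison set the PEGylated analog against its parent compound at the same labelled dose and time. Jun was higher and Mycn lower with AdipoRonPEG5, and the other 8 genes did not pass, against 5.39% of all tested genes called (2.68% higher and 2.71% lower). The median log2 difference was 0.19 over the 10 genes and -0.013 over all tested genes. Groups did not overlap for Jun and Mycn, and for 28.2% of all tested genes. The comparisons share libraries, since each vehicle library serves both compounds and each compound library serves a pair of comparisons.

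Mycn was at 1.66, 1.09 and 1.23 CPM in AdipoRonPEG5 1, 2 and 3, against 4.93, 4.33 and 6.14 CPM in AdipoRon 1, 2 and 3, with no overlap. The difference was 3.86-fold (log2 difference -1.95 ± 0.26 (SE), 95% confidence interval -2.53 to -1.37, with an adjusted p = 0.00347 by edgeR), and it kept its call under all 19 alternatives, with values from -2.14 to -1.80. Jun was at 12.8, 82.8 and 140 CPM in AdipoRonPEG5 1, 2 and 3, against 10.9, 7.77 and 9.70 CPM in AdipoRon 1, 2 and 3. These ranges did not overlap, but AdipoRonPEG5 1 lay just above AdipoRon 1. The log2 difference of Jun was 3.06 ± 0.63 (SE, 95% confidence interval 1.68 to 4.44, adjusted p = 0.0218), and the call ended under 7 of 19 alternatives (adjusted p from 0.0606 to 0.129). These were limma-voom, the replicate block, and the fits without any 1 of the AdipoRon libraries, AdipoRonPEG5 2 or AdipoRonPEG5 3, with a value of 2.35 in the last of these.

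For Myc the compounds were not shown to differ, with a log2 difference of 0.46 and a 95% confidence interval from -0.51 to 1.42 (adjusted p = 0.594). The interval leaves room for a difference of 2-fold in favour of AdipoRonPEG5. The intervals were narrower for Jund (log2 difference 0.24, 95% confidence interval -0.011 to 0.49, adjusted p = 0.252) and Ier2 (0.13, 95% confidence interval -0.25 to 0.52, adjusted p = 0.715). Without vehicle 3 and AdipoRonPEG5 1 together the difference of Jund was 0.36 and passed (adjusted p = 0.0382). Junb (-0.22), Fos (-0.60) and Egr1 (-0.38) were lower with AdipoRonPEG5 in the fit and Klf6 (0.44) and Ier3 (0.57) higher, as log2 differences whose 95% confidence intervals all include 0.

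Which of Myc and Mycn was the more abundant differed between libraries. The ratio of Myc to Mycn in FPKM was 3.60, 17.0 and 17.8 in AdipoRonPEG5 1, 2 and 3, it was 3.17, 2.92 and 0.882 in AdipoRon 1, 2 and 3, and it was 0.38, 0.843 and 0.316 in vehicle 1, 2 and 3. Mycn exceeded Myc in every vehicle library and in AdipoRon 3, and Myc exceeded Mycn in the other 5 libraries. The ratio was chosen after its values were seen and was given no test.

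**Figure D3:**
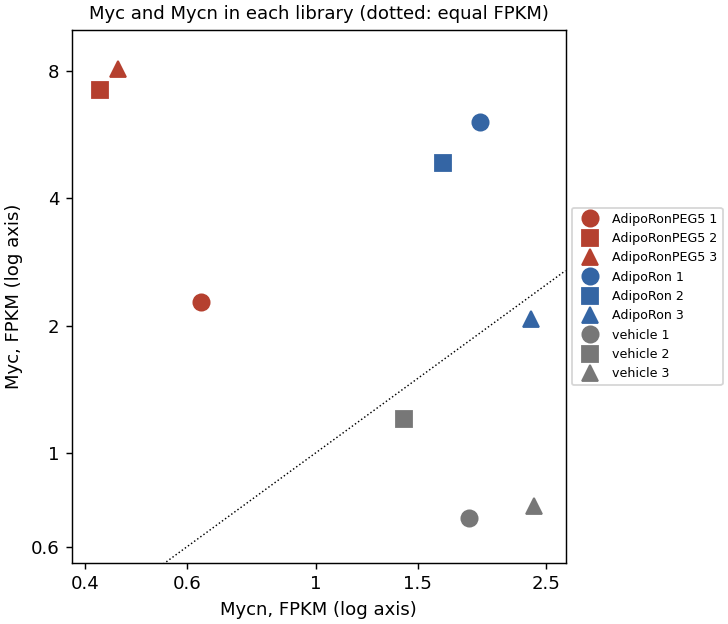
Myc (vertical, log axis) against Mycn (horizontal, log axis) in deposited FPKM for each of the 9 libraries, with colours for groups, symbols for replicate numbers and a dotted line of equal FPKM. The AdipoRonPEG5 libraries sit at 0.425 to 0.634 FPKM of Mycn, left of all others, and the vehicle libraries sit at or under 1.2 FPKM of Myc.

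The genes also differed in how much they varied between libraries of the same group. The pooled within-group SD of log2 CPM was 1.07 for Jun, 0.86 for Egr1 and 0.78 for Myc, which are larger than in 99.6%, 98.9% and 98.4% of tested genes. Among the tested genes nearest to each in level, these genes and Junb (SD 0.48) stood above at least 98.6%. Ier3 (0.37) stood above 28.9% and Fos (0.52) above 59.5% of genes at their level, which were likewise of low counts. Jund was the steadiest at 0.16. The spread sat in different groups: the SD of log2 CPM of Jun was 1.81 in AdipoRonPEG5, 0.25 in AdipoRon and 0.29 in vehicle, whereas that of Egr1 was 0.11, 1.41 and 0.42 in the same order.

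Deviations from the group means tied some genes together across the 9 libraries. They are given as a description, with 9 libraries sharing 3 group means and with the libraries farthest in the first gene left out in a second value. Fos deviated with Ier3 (Pearson r = 0.88, Spearman rho = 0.85, and r = 0.82 without AdipoRonPEG5 1 and AdipoRon 1) and with Klf6 (0.80, 0.75 and 0.71 likewise). Jun deviated with Klf6 (r = 0.80, rho = 0.73), with Myc (r = 0.76, rho = 0.78) and with Fos (r = 0.72, rho = 0.72), and without AdipoRonPEG5 1 and AdipoRonPEG5 3 these r were 0.41, 0.39 and 0.75, so that the first 2 rest in part on those libraries. The 10 pairs among Jun, Klf6, Fos, Ier3 and Myc had r from 0.60 to 0.88, and from 0.24 (Klf6 and Myc) to 0.82 (Fos and Ier3) without the farthest libraries, so that several rest on a few libraries. Junb and Ier2 deviated together (r = 0.84, rho = 0.73, and r = 0.87 without AdipoRon 3 and AdipoRonPEG5 3). Ier2 deviated against Klf6 (r = -0.58, rho = -0.48, and r = -0.30 without vehicle 3 and vehicle 1), and Myc against Mycn (r = -0.74, rho = -0.65, and r = -0.53 without AdipoRonPEG5 1 and AdipoRon 3).

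**Figure D4:**
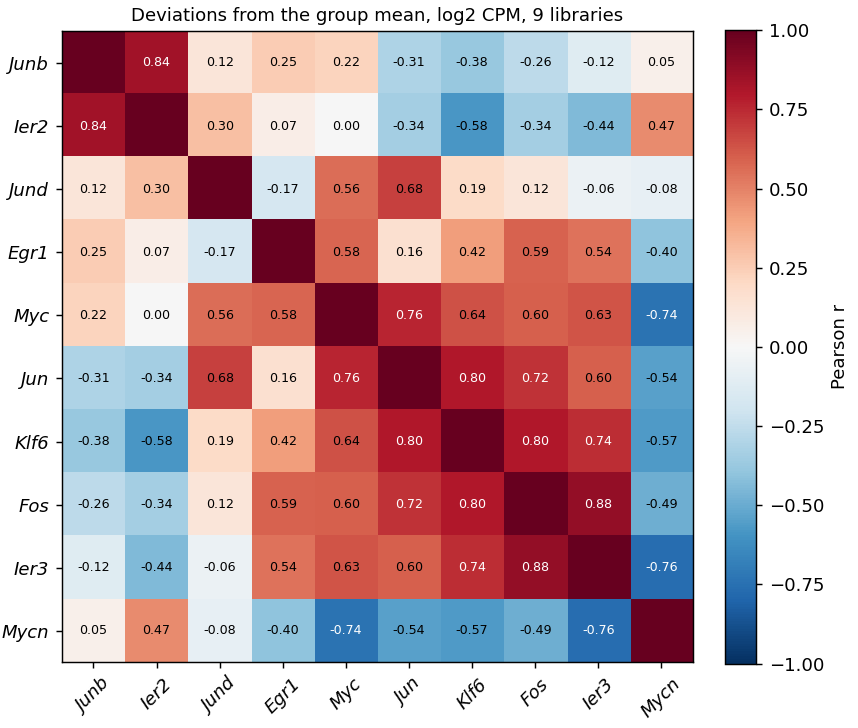
Pearson correlation (colour scale from -1 to 1, values printed) between genes of their deviations from the group mean in log2 CPM over 9 libraries. Junb and Ier2 are at 0.84, the pairs among Jun, Klf6, Fos, Ier3 and Myc range from 0.60 to 0.88 (0.24 to 0.82 without the farthest libraries, not drawn), and Mycn is negative with all 5 of these.

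The genes most like each member over all 9 libraries, group differences included, were found among 8854 or 8855 named genes with a mean of at least 5 CPM. Each r is among the 3 highest of that many candidates over only 9 libraries. Such a choice yields high values also among unrelated genes, and no test of shared regulation was run. Nearest to Mycn was Adipor2, an adiponectin receptor and a target of AdipoRon (Pearson r = 0.988), which was at 383, 361 and 384 CPM in AdipoRonPEG5 1, 2 and 3, at 508, 472 and 505 CPM in AdipoRon 1, 2 and 3, and at 503, 465 and 530 CPM in vehicle 1, 2 and 3. Next were Taf1 (0.962) and Mup19 (0.956). Nearest to Myc was Plk3, a stress-responsive kinase (0.966), at 45.6, 114 and 147 CPM in AdipoRonPEG5 1, 2 and 3, 95.8, 84.3 and 53.3 CPM in AdipoRon 1, 2 and 3, and 36.5, 47.9 and 35.1 CPM in vehicle 1, 2 and 3; then came Zcchc6 (0.959) and Mapre2 (0.958). The genes nearest to Jun were Rap2a (0.968), Emc7 (0.957) and Aldoa (0.938), and those nearest to Jund were Ankrd27 (0.974), Eps8l2 (0.951) and Lasp1 (0.943).

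Nearest to Ier2 were the acute phase gene Saa3 (r = 0.954), Socs3, a feedback inhibitor of cytokine receptors (0.936), and Rhpn2 (0.930). For Junb they were Kctd20 (0.937), Nfkbiz, a regulator of NF-kappaB (0.909), and Socs3 (0.904). Socs3 was at 17.7, 16.2 and 7.95 CPM in AdipoRonPEG5 1, 2 and 3, at 17.0, 18.6 and 7.24 CPM in AdipoRon 1, 2 and 3, and at 5.29, 5.68 and 19.0 CPM in vehicle 1, 2 and 3. In Socs3 and Junb, replicate 3 was the lowest of each compound group and the highest of the vehicle group. The other members were nearest to Spag9 (0.969), Ubxn7 (0.948) and Fnip1 (0.943) for Fos, Avl9 (0.972), Usp25 (0.935) and Atp1b3 (0.931) for Egr1, Fam120a (0.960), Plbd1 (0.960) and Capn7 (0.957) for Klf6, and Tmem30b (0.976), Anxa2 (0.952) and Zdhhc8 (0.950) for Ier3.

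Of other AP-1 family genes, 11 of 13 were tested. With AdipoRonPEG5 against vehicle 3 rose, 2 fell and 6 did not pass (median log2 fold change 0.079), against 17.2% of all tested genes called. Atf3, a stress-induced partner of Jun, was at 2.59, 2.96 and 16.8 CPM in AdipoRonPEG5 1, 2 and 3, against 0.591, 0.821 and 0.520 CPM in vehicle 1, 2 and 3. It rose without overlap (log2 fold change 3.54 ± 0.73 (SE), adjusted p = 0.00822), to 2.12 without AdipoRonPEG5 3 and 2.94 with limma-voom. The basic leucine zipper gene Batf3, expressed in immune cells, rose (1.89 ± 0.44, adjusted p = 0.014; 2.83 without vehicle 1). Its call ended without AdipoRonPEG5 2 and when vehicle 3 and AdipoRonPEG5 1 were both left out. The small Maf gene Mafg fell (-0.41 ± 0.08, adjusted p = 0.00658).

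With AdipoRon against vehicle, 2 of these 11 rose, 0 fell and 9 did not pass, against 5.2% of all tested genes called. At an unadjusted p under 0.05 by edgeR 3 of the 11 were higher and 0 lower, against 2884 of all 13151 tested genes in either direction. Batf (2.38 ± 0.53, adjusted p = 0.0294; 2.98 without vehicle 1) and Batf3 (1.80 ± 0.44, adjusted p = 0.0424; 2.74 without vehicle 1) were the called genes. Both are low, at 0.943 and 1.80 CPM on average in AdipoRon against 0.152 and 0.431 CPM in vehicle livers. The call of Batf ended without any 1 of the vehicle libraries, without AdipoRon 1 or 2, or with vehicle 3 and AdipoRonPEG5 1 both left out (adjusted p from 0.0546 to 0.103), and that of Batf3 under 9 alternatives (0.059 to 0.119), among them each AdipoRon library, vehicle 2, vehicle 3, AdipoRonPEG5 1 and AdipoRonPEG5 2 left out. Between the compounds Mafg was lower (-0.50 ± 0.08, adjusted p = 0.00834) and Atf3 higher with AdipoRonPEG5 (2.82 ± 0.69, adjusted p = 0.0413). Atf3 lost this call without vehicle 2 or any 1 of the AdipoRon libraries, in the fit of only these 2 groups, with the replicate block and with limma-voom (0.0525 to 0.153), and was at 1.42 without AdipoRonPEG5 3.

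Myc pairs with Max and competes with related factors for it. Over all tested genes 17.2% were called with AdipoRonPEG5 against vehicle, 5.2% with AdipoRon against vehicle and 5.39% between the compounds. Of 10 tested genes of the Myc and Max network (11 listed), 0 rose and 2 fell with AdipoRonPEG5 against vehicle (median -0.091); edgeR, DESeq2 and limma-voom each called 0 higher, and 0 were higher at an unadjusted p under 0.05. Mlxipl, which encodes the carbohydrate-responsive factor ChREBP, was at 349 ± 56.1 CPM against 549 ± 35.2 CPM (-0.65 ± 0.15, adjusted p = 0.0139; no call without vehicle 2 or AdipoRonPEG5 3, 0.0532 to 0.055). Max, the obligate partner of Myc, was at 24.9 ± 1.61 CPM against 31.2 ± 2.21 CPM (-0.33 ± 0.098, adjusted p = 0.0399), a call that ended without any 1 vehicle or AdipoRonPEG5 library, with both vehicle 3 and AdipoRonPEG5 1 left out, and with total-count scaling (0.0516 to 0.141). With AdipoRon against vehicle 1 rose and 0 fell: Mycl, the third Myc paralog, at 12.6 ± 0.462 CPM against 9.09 ± 0.817 CPM (0.48 ± 0.12, adjusted p = 0.0466), a call that ended under 10 of 19 alternatives (0.0517 to 0.147), among them vehicle 1, vehicle 2, each AdipoRon library and AdipoRonPEG5 2 left out. Between the compounds Mlxipl was lower with AdipoRonPEG5 (-0.61 ± 0.15, adjusted p = 0.0424), and this call ended under 7 of 19 alternatives (0.0617 to 0.137), among them vehicle 2, AdipoRon 2, AdipoRon 3 and each AdipoRonPEG5 library left out.

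Myc is known to drive genes of growth and ribosome production. The counts here stand beside 17.2% of all tested genes called with AdipoRonPEG5 and 5.2% with AdipoRon, each against vehicle. Of 26 tested Myc target genes of growth and ribosome biogenesis, 0 rose, 3 fell and 23 did not pass with AdipoRonPEG5 against vehicle (median log2 fold change -0.08, highest 0.16), and 0 were higher at an unadjusted p under 0.05 by edgeR, DESeq2 or limma-voom. With AdipoRon against vehicle 0 rose and 2 fell by each of these 3 tools (median -0.11), with 1 higher at an unadjusted p under 0.05. The nucleolar gene Nolc1 fell with AdipoRonPEG5 (-0.61 ± 0.095, adjusted p = 0.00208). It also fell with AdipoRon (-0.46 ± 0.094, adjusted p = 0.0216; no call without vehicle 1, AdipoRon 1 or AdipoRon 3, or with only the 2 groups compared, 0.0504 to 0.0625). With AdipoRonPEG5, Cad, a gene of pyrimidine synthesis, fell (-0.55 ± 0.13, adjusted p = 0.0161; no call without AdipoRonPEG5 2 or 3), as did Rrp9, which acts in ribosomal RNA processing (-0.42 ± 0.11, adjusted p = 0.0275; no call under 7 of 19 alternatives, among them vehicle 2, vehicle 3, AdipoRonPEG5 2 and AdipoRonPEG5 3 left out, 0.0535 to 0.0879). Summed cell cycle markers (6 genes, none at 0) were at 5.36 to 10.3 CPM in AdipoRonPEG5, 6.96 to 11 CPM in AdipoRon and 2.98 to 5.23 CPM in vehicle libraries. Of the 4 that were tested, 3 were called higher with each compound against vehicle (median log2 fold changes 1.85 with AdipoRonPEG5 and 1.70 with AdipoRon), and their part in the changes of Myc and its targets was not tested. Nop58, a small nucleolar ribonucleoprotein gene, fell with AdipoRon (-0.69 ± 0.13, adjusted p = 0.0127). Between the compounds 0 of the 26 were called by edgeR, DESeq2 or limma-voom, with 1 higher and 1 lower at an unadjusted p under 0.05 by edgeR.

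Genes that AP-1 is known to activate include galectins, proteases and matrix genes. Their counts stand beside 17.2% of all tested genes called with AdipoRonPEG5 and 5.2% with AdipoRon, each against vehicle, and 5.39% between the compounds. Of 12 tested AP-1 target genes (15 listed), 8 rose, 0 fell and 4 did not pass with AdipoRonPEG5 against vehicle (median log2 fold change 1.38, 6 to 9 higher under the alternatives), and 5 rose, 0 fell and 7 did not pass with AdipoRon (median 0.83, 4 to 7 higher). None was lower at an unadjusted p under 0.05 by edgeR in either comparison. Lgals3, a galectin of macrophages and injured epithelium, was at 13.2 ± 1.33 CPM in AdipoRonPEG5, 6.40 ± 1.30 CPM in AdipoRon and 1.99 ± 0.455 CPM in vehicle livers (SD, n = 3), with log2 fold changes against vehicle of 2.68 ± 0.20 with AdipoRonPEG5 (adjusted p = 3.64e-05) and of 1.63 ± 0.21 with AdipoRon (0.00319). The hyaluronan receptor Cd44 rose with both (1.71 ± 0.24 and 1.88 ± 0.24), as did the intermediate filament gene Vim (1.27 ± 0.15 and 0.89 ± 0.15). Tgfb1 rose with AdipoRon (0.78 ± 0.14), but its higher level was not particular to that compound. It was at 9.11 ± 0.771 CPM in AdipoRonPEG5, 8.49 ± 0.955 CPM in AdipoRon and 4.91 ± 0.31 CPM in vehicle livers. Mmp12, a metalloproteinase of macrophages, was at 2.27 ± 0.880 CPM in AdipoRonPEG5 and 0.169 ± 0.105 CPM in vehicle livers (3.45 ± 0.51, adjusted p = 0.00163; 4.26 without vehicle 1). Its levels in vehicle and AdipoRon libraries lie near the floor, so that the fitted value depends on the prior count. Between the compounds 2 were higher with AdipoRonPEG5, Mmp12 (3.59 ± 0.54, adjusted p = 0.00582; 4.47 without AdipoRon 2) and Lgals3 (1.05 ± 0.18, adjusted p = 0.0102). Several of these targets are expressed by macrophages, whose summed markers were higher in both compound groups by the ranges given above, and the part of those cells in this rise was not tested.

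**Figure D5:**
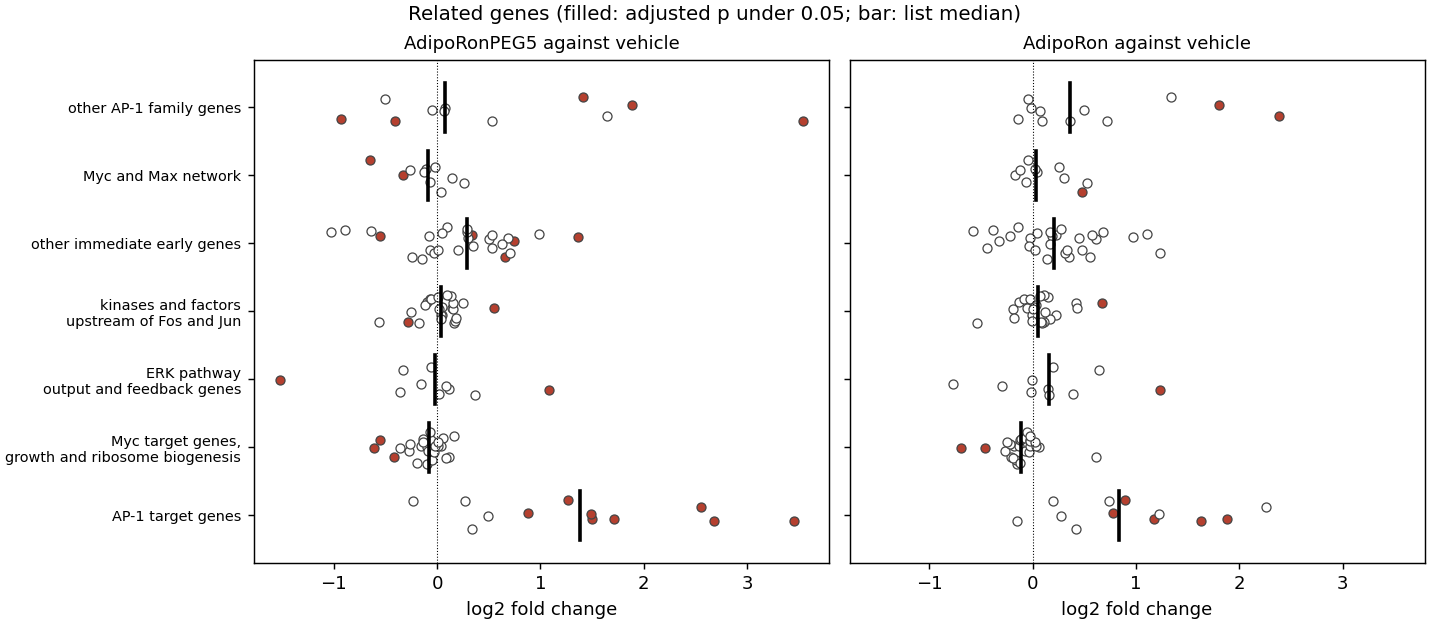
Log2 fold changes (horizontal axes) of the tested members of 7 lists of related genes with AdipoRonPEG5 against vehicle and AdipoRon against vehicle; filled points passed an adjusted p of 0.05 and bars mark the list median. The AP-1 target genes have medians of 1.38 and 0.83, and the Myc target genes medians of -0.08 and -0.11.

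Of 28 tested further immediate early genes (32 listed), 4 rose, 1 fell and 23 did not pass with AdipoRonPEG5 against vehicle (median 0.29). In this comparison 17.2% of all tested genes were called. Mcl1, an inhibitor of apoptosis, was at 134 ± 4.19 CPM against 106 ± 2.29 CPM (0.34 ± 0.066, adjusted p = 0.00602), and Nfkbia, the NF-kappaB inhibitor, at 40.4 ± 2.74 CPM against 59.3 ± 8.11 CPM (-0.55 ± 0.10, adjusted p = 0.00515). Plk3 rose (1.36 ± 0.35, adjusted p = 0.0231; no call without vehicle 1, vehicle 3, AdipoRonPEG5 2 or AdipoRonPEG5 3, or with the replicate block, 0.0501 to 0.096), and so did the mRNA-decay factor Zfp36l1 (0.66 ± 0.16, adjusted p = 0.0176; no call without vehicle 1, AdipoRonPEG5 2 or AdipoRonPEG5 3). The fourth to rise was Cyr61 (0.74 ± 0.22, adjusted p = 0.0449), a call that ended under 7 of 19 alternatives (0.051 to 0.162): with the replicate block and without any 1 vehicle library, AdipoRon 2, AdipoRonPEG5 2 or AdipoRonPEG5 3. With AdipoRon edgeR called 0 of the 28, while DESeq2 called 3 higher and limma-voom 0. At an unadjusted p under 0.05 by edgeR 7 of the 28 were higher and 1 lower, against 2884 of all 13151 tested genes in either direction. Between the compounds Cyr61, a matricellular gene that serum and YAP induce, was the only one called, higher with AdipoRonPEG5 (1.07 ± 0.23, adjusted p = 0.0251; no call without AdipoRon 1, AdipoRon 2, AdipoRonPEG5 2 or AdipoRonPEG5 3, 0.0678 to 0.102).

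Upstream of Fos and Jun, most kinase and factor mRNAs did not pass, as was true of most tested genes. Of 24 tested genes in this list 1 rose and 1 fell with AdipoRonPEG5 against vehicle (median 0.042), against 17.2% of all tested genes called. With AdipoRon 1 rose and 0 fell (median 0.053), against 5.2% of all tested genes called. Between the compounds 1 was higher and 3 were lower (median 0.019), against 5.39% of all tested genes called. Map3k5, which encodes the stress kinase ASK1, rose with AdipoRon (0.67 ± 0.12, adjusted p = 0.0142; no call without vehicle 1) and was lower with AdipoRonPEG5 than with AdipoRon (-0.52 ± 0.12, adjusted p = 0.0392). Map2k7, a kinase that activates JNK, was lower with AdipoRonPEG5 than with vehicle (-0.28 ± 0.079, adjusted p = 0.033) and than with AdipoRon (-0.39 ± 0.079, adjusted p = 0.0204). The ribosomal S6 kinase gene Rps6ka1 rose with AdipoRonPEG5 (0.55 ± 0.16, adjusted p = 0.0435), and between the compounds Creb1, a factor of the cAMP response, was lower (-0.37 ± 0.085, adjusted p = 0.0314) and the ERK kinase gene Map2k2 higher (0.34 ± 0.086, adjusted p = 0.0474). These calls of Map3k5 between the compounds, Map2k7, Rps6ka1, Creb1 and Map2k2 each ended under 6 to 10 of 19 alternatives (adjusted p from 0.0503 to 0.147), in each case without AdipoRonPEG5 2 and without AdipoRonPEG5 3, and with the replicate block. Leaving out AdipoRonPEG5 1 ended those of Rps6ka1, Creb1, Map2k2 and Map3k5, and leaving out AdipoRon 1 or AdipoRon 2 ended all 4 between the compounds. Leaving out AdipoRon 3 ended those of Map2k7, Creb1 and Map2k2 between the compounds and that of Rps6ka1. Leaving out vehicle 2 ended all but that of Map2k7 between the compounds, vehicle 1 those of Map2k2 and of Map2k7 against vehicle, and vehicle 3 those of Map2k7 and Rps6ka1 against vehicle.

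Most of the 10 tested readouts of ERK signalling (12 listed) did not pass, as was true of most tested genes. Of these readouts 1 rose, 1 fell and 8 did not pass with AdipoRonPEG5 against vehicle (median -0.023), against 17.2% of all tested genes called. With AdipoRon 1 rose and 0 fell (median 0.15), against 5.2% of all tested genes called. Between the compounds 5.39% of all tested genes were called. Spry4, a feedback inhibitor of ERK signalling, was at 6.45 ± 1.53 CPM in AdipoRonPEG5, 18.5 ± 7.49 CPM in AdipoRon and 18.6 ± 2.06 CPM in vehicle livers (SD, n = 3). It was lower with AdipoRonPEG5 than with vehicle (-1.52 ± 0.26, adjusted p = 0.0033) and than with AdipoRon (-1.52 ± 0.26, adjusted p = 0.0104), and both calls held under all 19 alternatives. Phlda1, induced by ERK and other stimuli, rose with AdipoRonPEG5 (1.08 ± 0.28, adjusted p = 0.0237; no call without vehicle 1, vehicle 2 or AdipoRonPEG5 2) and with AdipoRon (1.23 ± 0.28, adjusted p = 0.0324; no call without vehicle 1, vehicle 2, AdipoRon 1 or AdipoRon 2, or with vehicle 3 and AdipoRonPEG5 1 both left out). Ccnd1, the cyclin of early cell cycle entry, was lower with AdipoRonPEG5 than with AdipoRon (-0.97 ± 0.25, adjusted p = 0.0483), a call that ended under 11 of 19 alternatives (0.050 to 0.144), among them any 1 library of either group left out.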

How the data were processed

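Liver RNA gave 9 RNA-seq libraries, 3 per group. The authors deposited unnormalized counts for every gene and library beside FPKM, which relate the counts to gene length and library size. Per the submitters' processing notes DESeq2, edgeR, HTSeq 0.6.1, STAR 2.5 and TopHat were used, for steps that are not specified; build, annotation, strand setting and treatment of ambiguous reads are not given in the sources used here. Column names were matched with the descriptions in the labels. The deposited counts served every test, and the deposited FPKM only comparisons of level between genes.

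All 9 libraries entered 1 quasi-likelihood fit in R 4.3.3 with edgeR 4.0.16 (TMM, filterByExpr, robust set to FALSE, 3 group means), with Benjamini-Hochberg adjustment over 13151 genes and a threshold of 0.05. SE and 95% intervals come from this fit, and floors of 3 counts cover counting error only. Correlations used log2 CPM with a prior count of 2. Alternatives were RLE factors, total-count scaling, no filter, a mean of at least 1 CPM, DESeq2 1.42.0, limma-voom (limma 3.58.1), only the 2 groups compared, a replicate block, each library left out, vehicle 1 thinned to 15795230 counts, vehicle 3 and AdipoRonPEG5 1 both left out, and a prior count of 0.5. On simulated data over 13151 genes the fit recovered 86.6% of 2-fold changes with 8.81% of calls false for AdipoRonPEG5 against vehicle, 70.1% with 10.1% for AdipoRon against vehicle, and 71.6% with 5.07% between the compounds. The simulation changed 200 genes and drew counts with the spread fitted to these data. In the data 2260, 684 and 709 genes were called in the same order, so these shares of false calls do not carry over. All pairs of libraries in a group differed by more than sampling noise (chi-square per gene from 12.6 to 191). The highest values were in the vehicle group, at 191 for vehicle 1 and 3 and 67.2 for vehicle 2 and 3. Every other pair was at or under 34.6. The members, lists and alternatives were chosen with earlier results of these data known. Named genes are all 10 members, up to 4 called genes per list and comparison by lowest p, the 3 genes most correlated with each member, and Junos, Prdx2, Saa1 and the markers of cell types. The result of 1 gene that this rule names is not reported here.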

Additional observations from a re-analysis of the deposited data

How the results depend on the processing

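None of the 10 genes changed direction while called under the alternatives that gave a value; over all of them, comparisons and alternatives, 25 values lost a call, 14 gained one and 522 kept their side of the threshold. Fos and Ier3 had no value with a mean of at least 1 CPM in any comparison or with DESeq2 between the compounds, and Fos none with only the 2 groups compared for AdipoRonPEG5 against vehicle. Of the 10 genes, the count called with AdipoRonPEG5 against vehicle was 4, and 2 to 6 with 1 library left out (2 without AdipoRonPEG5 3, 6 without AdipoRonPEG5 1). With AdipoRon against vehicle it was 1, and 2 with no filter, 0 with limma-voom (2 at an unadjusted p under 0.05), 0 with the replicate block (3 at an unadjusted p under 0.05), and 0 to 2 with 1 library left out. Between the compounds it was 2, and 1 with limma-voom, 1 with the replicate block, and 1 to 2 with 1 library left out. The count of all genes called was 2260 with AdipoRonPEG5 (1337 to 2334 with 1 library left out), 684 with AdipoRon (325 with only the 2 groups compared, 444 with the replicate block, 250 to 624 with 1 library left out) and 709 between the compounds (338 with the replicate block, 233 to 1032 with 1 library left out). Total-count scaling moved the split of all genes to 1700 higher and 584 lower with AdipoRonPEG5, against 1256 and 1004, and to 883 and 64 with AdipoRon, against 500 and 184, with the median of all genes moving by 0.081 and 0.10 on the log2 scale, and the calls of the 10 genes stayed the same in number. The cause of these shifts was not tested. Deviations of same-numbered libraries of different groups had r from -0.27 to 0.077, and those of unlike numbers r from -0.30 to 0.32. With 3 libraries a group, these values cannot decide whether the numbers pair the libraries. With a prior count of 0.5 the within-group SD stayed within 1.5 times its value for each of the 10 genes. At 4 to 26 counts a library, depth limits Fos most.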
